A study of Mus musculus with 32 samples.

Results

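Acyp2 encodes the muscle-type acylphosphatase, a small cytosolic enzyme that removes phosphate from carboxyl-phosphate bonds. Its known substrates are acyl phosphates such as the glycolytic intermediate 1,3-bisphosphoglycerate, and it is also known to hydrolyse the phosphoenzyme intermediate of ion pumps such as the sarcoplasmic reticulum calcium pump. The gene was read by 1 probe, which carries a RefSeq transcript identifier that a reference table names Acyp2, among 33012 noncontrol probes of the array. It was chosen by its difference in level between macrophages and dendritic cells, with its values in all 8 groups known, so that difference, and how it varied with genotype and RSG, are given below as a description and without a test. The RSG and genotype comparisons use the same arrays, and their p-values take no account of this choice.

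Bone marrow cells of 8 C57Bl/6 mice were cultured for 9 days either with 20 ng/ml M-CSF and 20 ng/ml IL-4, which gives alternatively activated macrophages, or with 20 ng/ml GM-CSF and 20 ng/ml IL-4, which gives immature dendritic cells (iDCs). Mice 1 to 4 were Pparg+/- LysCre and mice 5 to 8 were Pparg fl/- LysCre. Every mouse therefore carried 1 null Pparg allele and the LysCre transgene, which drives recombination in myeloid cells, and the genotypes differ in whether the other Pparg allele is wild-type or loxP-flanked. PPARγ is a lipid-activated nuclear receptor that binds DNA with RXR, and rosiglitazone (RSG) is its synthetic agonist. Each culture received vehicle (DMSO and ethanol) or 1 µM RSG, so that each mouse gave 4 of the 32 arrays and each of the 8 groups held 4 arrays.

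The promoter window of Acyp2 is shown because RSG acts through a DNA-binding receptor and IL-4 through STAT6. RefSeq's window on the GRCm38.p6 build was read on the minus strand at chr11:30649397-30649646, the 250 bases before the gene's start, and the capitals mark the letters TTCCTC, the reverse complement of GAGGAA.
Acyp2 promoter: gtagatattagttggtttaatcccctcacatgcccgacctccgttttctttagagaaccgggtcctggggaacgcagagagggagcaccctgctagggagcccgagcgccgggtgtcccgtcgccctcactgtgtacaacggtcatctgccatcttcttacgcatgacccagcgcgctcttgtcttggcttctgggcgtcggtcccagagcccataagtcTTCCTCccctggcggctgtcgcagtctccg
The letters GAGGAA, the core bound by the myeloid factor PU.1, were found 1 time, on the reverse strand from base 221 of the window, and 23.3% of 32851 promoter windows of the same length hold them on either strand. The letters AGGTCANAGGTCA, the direct repeat that PPARγ and RXR bind, were not in the window on either strand, and 0.0335% of the windows hold them. The single site AGGTCA, which that repeat contains, was also not in the window, against 14.0% of all windows. The palindrome TTCNNNNGAA of STAT6 was not in it, against 5.85% of all windows, and neither was TATAAA, against 12.4%. The window had a GC content of 60.0% and 18 CpG dinucleotides, where the medians over all windows were 52.4% and 6. These are matches of letters only, and no binding was measured on the arrays.

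Acyp2 was measured above background in both cell types. The signal-to-noise ratio (S/N), which above 1 is the signal divided by its standard deviation, was 9.08 to 30.8 on the 16 macrophage arrays (median 20.8) and 2.75 to 18.1 on the 16 iDC arrays (median 7.66). It reached the detection limit of 3 on 31 of the 32 arrays, and the exception was mouse 6 of the vehicle-treated Pparg fl/- LysCre iDCs at 2.75. The signal before normalization was 2045 to 12047 in macrophages (median 6428) and 961 to 3325 in iDCs (median 1999). The scanner's quality flag was 0 on every array.

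Libraries that stand apart touch the comparisons of genotypes. Of the marker genes listed for 10 cell types or states, which include macrophages, DCs, other blood cells and muscle, Ear1 (an eosinophil-associated ribonuclease) and Hba-a1 (haemoglobin alpha, erythroid) were those with a named probe, so neither the labelled cell types nor Pparg itself could be checked. Hba-a1 was not detected on any of the 8 Pparg+/- LysCre macrophage arrays, at log2 levels of 7.28 to 8.32. In Pparg fl/- LysCre macrophages it was 12.15 to 12.67 in mice 6, 7 and 8 under both treatments, and 8.59 (vehicle) and 8.67 (RSG) in mouse 5. Ear1 in vehicle-treated macrophages was 17.37 to 17.66 in the Pparg+/- LysCre mice, 17.20 in mouse 5 and 14.59 to 15.24 in mice 6 to 8. With RSG it was 19.18 to 19.53 in mice 1 to 4, 17.19 in mouse 5 and 15.08 to 16.58 in mice 6 to 8. The macrophage arrays labelled Pparg fl/- LysCre mouse 5 were thus close to the Pparg+/- LysCre arrays in Hba-a1 under both treatments and in Ear1 with vehicle, and between the genotypes in Ear1 with RSG. Tceal9, described below, was 17.45 in mouse 5 with vehicle, within the 17.24 to 17.63 of mice 6 to 8 and below the 18.00 to 18.55 of mice 1 to 4. With RSG it was 17.51 in mouse 5, between the 16.41 to 17.43 of mice 6 to 8 and the 17.81 to 18.14 of mice 1 to 4. Mouse 5 therefore stood apart in some genes and not in others, and results on genotype are given with and without this mouse. Mice 1 and 2, 3 and 4, 5 and 6, and 7 and 8 were scanned on 4 separate days, each with 1 genotype, so scan day and genotype cannot be told apart.

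The level of Acyp2, on the log2 scale of the quantile-normalized signal, was highest in vehicle-treated Pparg+/- LysCre macrophages and lowest in vehicle-treated Pparg+/- LysCre iDCs. In these macrophages it was 13.18, 13.42, 12.89 and 13.15 in mice 1 to 4, a mean of 13.16 ± 0.22 (SD, n = 4). In the iDCs of the same mice it was 9.91, 10.51, 10.40 and 10.69, a mean of 10.38 ± 0.33 (SD, n = 4). The lowest macrophage array of these groups lay more than 2 log2 units above the highest iDC array.

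With RSG the macrophages of mice 1 to 4 had levels of 12.89, 12.50, 12.65 and 12.74, a mean of 12.70 ± 0.16 (SD, n = 4). Their iDCs with RSG had 11.31, 10.96, 11.44 and 11.75, a mean of 11.37 ± 0.33 (SD, n = 4). The cell types did not overlap here either, but the macrophage values were at the lower end of, or below, those with vehicle, and every iDC value was above those with vehicle.

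In Pparg fl/- LysCre macrophages, vehicle-treated cells of mice 5 to 8 had 12.83, 12.28, 11.97 and 11.75 (mean 12.21 ± 0.47, SD, n = 4), and RSG-treated cells had 12.58, 11.74, 11.43 and 11.25 (mean 11.75 ± 0.59, SD, n = 4). Mouse 5 was the highest of the 4 in both. The iDCs of these mice had 10.99, 10.29, 10.40 and 11.11 with vehicle (mean 10.70 ± 0.42, SD, n = 4), and 11.49, 10.99, 10.38 and 10.57 with RSG (mean 10.86 ± 0.49, SD, n = 4). The RSG-treated macrophages of mice 7 and 8, at 11.43 and 11.25, lay below the RSG-treated iDCs of mouse 5 at 11.49, so with RSG the cell types of this genotype overlapped between mice, which they did not with vehicle.

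**Figure D1:**
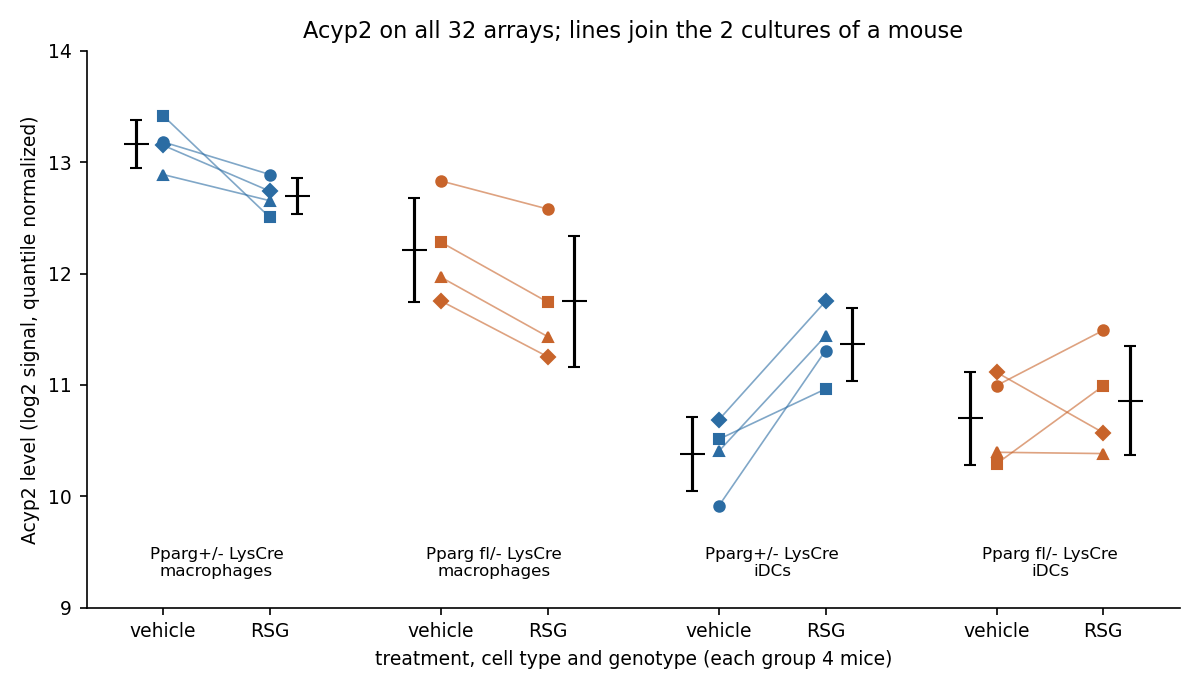
Acyp2 level on each of the 32 arrays (vertical axis, log2 of the quantile-normalized signal) by cell type, genotype and treatment; points are mice, lines join vehicle and RSG cultures of a mouse, and bars beside them are the mean ± SD of 4 mice. Macrophages of both genotypes slope down with RSG in all 8 mice, and the 4 Pparg+/- LysCre iDC lines slope up.

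Ordered by mean, the 8 groups ran from Pparg+/- LysCre macrophages with vehicle (13.16) and RSG (12.70), through Pparg fl/- LysCre macrophages with vehicle (12.21) and RSG (11.75), to Pparg+/- LysCre iDCs with RSG (11.37), Pparg fl/- LysCre iDCs with RSG (10.86) and vehicle (10.70), and Pparg+/- LysCre iDCs with vehicle (10.38). All 4 macrophage groups lay above all 4 iDC groups by mean. Every pair of neighbours in this order overlapped or met in range, so no neighbouring groups were told apart by their spread without pairing by mouse. Vehicle and RSG cultures came from the same mice, and within mice the macrophage level was lower with RSG in 8 of 8. Of the sum of squares of the 32 values, the cell type held 67.4%, genotype 6.88%, the cell type by RSG term 6.78%, the cell type by genotype term 4.64%, RSG on its own 0.0822% and the spread between arrays of a group 12.1%. The small share of RSG on its own goes with opposite signs of its mean differences in the 2 cell types.

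Within each mouse, macrophages had more Acyp2 than iDCs in 16 of 16 pairs of cultures (8 mice under each treatment). With vehicle, the iDC level minus the macrophage level was -3.27, -2.91, -2.48 and -2.47 in mice 1 to 4, a mean of -2.78 ± 0.38 (SD, n = 4) or 6.87-fold more in macrophages. In mice 5 to 8 it was -1.84, -1.99, -1.57 and -0.64, a mean of -1.51 ± 0.60 (SD, n = 4) or 2.85-fold. With RSG it was -1.58, -1.54, -1.21 and -0.99 in mice 1 to 4 (mean -1.33 ± 0.28, SD, n = 4, 2.51-fold) and -1.09, -0.75, -1.05 and -0.68 in mice 5 to 8 (mean -0.89 ± 0.21, SD, n = 4, 1.86-fold). The difference was smaller with RSG than with vehicle in 7 of 8 mice, and mouse 8 was the exception. Among the 16620 probes tested, 1.44% were at least as much lower in iDCs as Acyp2 in vehicle-treated Pparg+/- LysCre cells, 5.85% in their RSG-treated cells, 5.07% in vehicle-treated and 10.2% in RSG-treated Pparg fl/- LysCre cells. In such cultures a lower level per cell and fewer cells holding the transcript cannot be told apart.

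**Figure D2:**
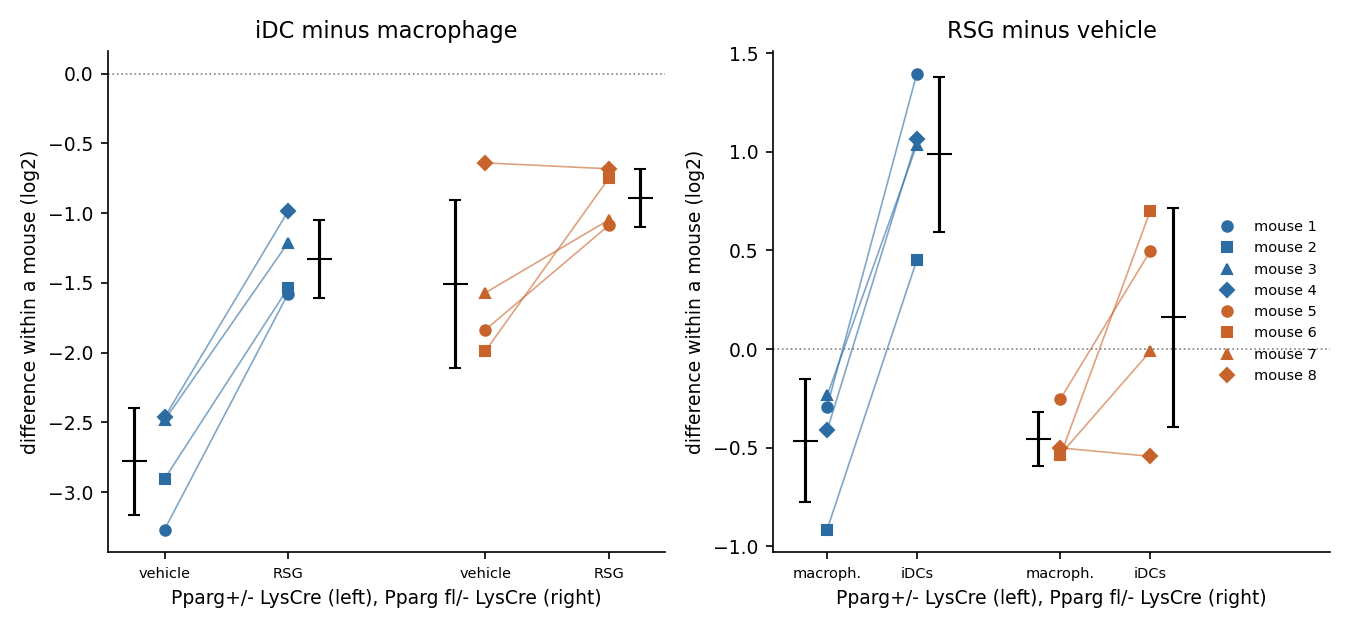
Acyp2 differences within each mouse (vertical axes, log2): left, iDCs minus macrophages under vehicle and RSG, and right, RSG minus vehicle in macrophages and iDCs; points are mice, lines join the values of a mouse, and bars are the mean ± SD of 4 mice. The macrophage to iDC difference of mice 1 to 4 shrinks from a mean of -2.78 to -1.33 with RSG, and all 8 macrophage changes lie below 0.

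The level of Acyp2 was higher with RSG than with vehicle in Pparg+/- LysCre iDCs. This comparison uses the vehicle-treated iDCs, the lowest of the 8 groups, which are part of the contrast by which the gene was chosen. The p-values below take no account of that. The change from vehicle was 1.40, 0.45, 1.04 and 1.06 (log2) in mice 1 to 4, higher in 4 of 4 mice, as were 19.5% of the probes tested. The mean was 0.99 ± 0.27 (SE) or 1.98-fold, with a 95% confidence interval of 0.41 to 1.56 and a limma adjusted p of 0.0363 over the 16620 probes. A probe was called where its adjusted p was below 0.05 and its levels differed 1.5-fold or more, which 6.01% of the probes tested did in this comparison. The call was lost when any of mice 1, 2, 3 or 4 was left out, with adjusted p-values of 0.0687 to 0.164 and changes of 0.85 to 1.17. An exact sign-flip test over 4 mice cannot go below p = 0.125, two-sided, which is the value reached. In the same cultures Ear1 was 14.21 to 15.59 with vehicle and 17.49 to 18.32 with RSG, and Hba-a1 was 9.35 to 10.88 and 8.28 to 10.31. Whether other cells had a part in the Acyp2 change was not tested.

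In Pparg fl/- LysCre iDCs the change with RSG was 0.50, 0.70, -0.01 and -0.54 in mice 5 to 8. It was above 0 in 2 mice and below 0 in 2, with a mean of 0.16 ± 0.27 (SE) and a limma adjusted p of 0.920, and it was 0.05 without mouse 5, -0.02 without mouse 6 and 0.40 without mouse 8. In this comparison 0.692% of the probes were called, 115 of them, and 202 with the mouse as a block. The difference in RSG effect between the genotypes in iDCs was itself tested. The effect was 0.83 lower in Pparg fl/- LysCre cells (95% confidence interval -1.64 to -0.01), which did not pass (limma adjusted p = 0.464, 0.439% of probes called; exact two-sided permutation p = 0.0857, n = 4 and 4, 0.171 adjusted over 6 tests). Without mouse 5 it was -0.94 (limma adjusted p = 0.273). The data thus did not separate the iDC responses of the genotypes.

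In macrophages the level of Acyp2 was lower with RSG in 8 of 8 mice, as was that of 3.11% of the probes tested. The vehicle-treated macrophages of mice 1 to 4, the highest of the 8 groups, are part of the contrast by which the gene was chosen. The p-values for their RSG change take no account of that. The changes were -0.29, -0.91, -0.24 and -0.41 in mice 1 to 4 (mean -0.46 ± 0.31, SD, n = 4) and -0.25, -0.54, -0.53 and -0.50 in mice 5 to 8 (mean -0.46 ± 0.14, SD, n = 4). These means are 1.38-fold and 1.37-fold lower levels, below the 1.5-fold set for a call. With the authors' ratios they were 1.59-fold and 1.51-fold, where the median of all probes moved by -0.15 and -0.12 (log2), and neither was called.

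Neither macrophage change passed in limma over all probes. The adjusted p was 0.592 in Pparg+/- LysCre cells, where 1.2% of the probes were called (199, against 494 with the mouse as a block). It was 1.00 in Pparg fl/- LysCre cells, where 0% were called. In the latter, limma gave 497 probes at an unadjusted p under 0.05, and 5 were called with the mouse as a block and none by the methods' t-test. The main fit did not pair the cultures of a mouse. With the mouse as a block, the SE of the Acyp2 change was 0.12 in each genotype, against 0.27. The limma adjusted p was then 0.0805 in Pparg+/- LysCre and 0.399 in Pparg fl/- LysCre cells, and neither change was called. The 2 effects differed by 0.01 (95% confidence interval -0.81 to 0.83, limma adjusted p = 1.00, 0.00602% of probes called; exact permutation p = 1.00, n = 4 and 4). With the mouse as a block the interval was -0.39 to 0.40, which leaves room for effects that differ by up to that much, and without mouse 5 the difference was -0.06.

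The mean RSG effects of both genotypes, in macrophages and in iDCs, were added after seeing the data. The mean macrophage effect was -0.46 ± 0.19 (SE), with a limma adjusted p of 0.364 and 0.752% of probes called. With the mouse as a block the adjusted p was 0.0293, still short of 1.5-fold, and 291 probes were called against 125. The mean iDC effect was 0.57 ± 0.19 (SE), higher in 6 of 8 mice, with a limma adjusted p of 0.0825 and 4.84% of probes called. Exact sign-flip tests over 8 mice gave p = 0.0078 in macrophages, the smallest the test allows, and 0.0625 in iDCs. Adjusted over these tests, they were 0.0156 and 0.0625, and they take no account of the means being added after seeing the data. All 8 macrophage changes were by then known to be negative, which fixes the sign-flip p at its smallest value. The macrophage p-value is therefore a description of those signs and no further support for a change.

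Within a Pparg+/- LysCre mouse, the RSG change in iDCs exceeded that in macrophages by 1.69, 1.37, 1.27 and 1.48 (log2) in mice 1 to 4, a mean of 1.45 ± 0.18 (SD, n = 4). It did so in 4 of 4 mice, as for 18% of the probes tested. In Pparg fl/- LysCre mice the same difference was 0.75, 1.24, 0.52 and -0.04 in mice 5 to 8, above 0 in 3 of 4, with a mean of 0.62 ± 0.53 (SD, n = 4), which was 0.41 without mouse 6. These values equal the macrophage to iDC difference with RSG minus that with vehicle, so they hold the contrast by which the gene was chosen and no test is given. Nothing is read from the 3.02% (Pparg+/- LysCre) and 0.108% (Pparg fl/- LysCre) of probes called in these comparisons.

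**Figure D3:**
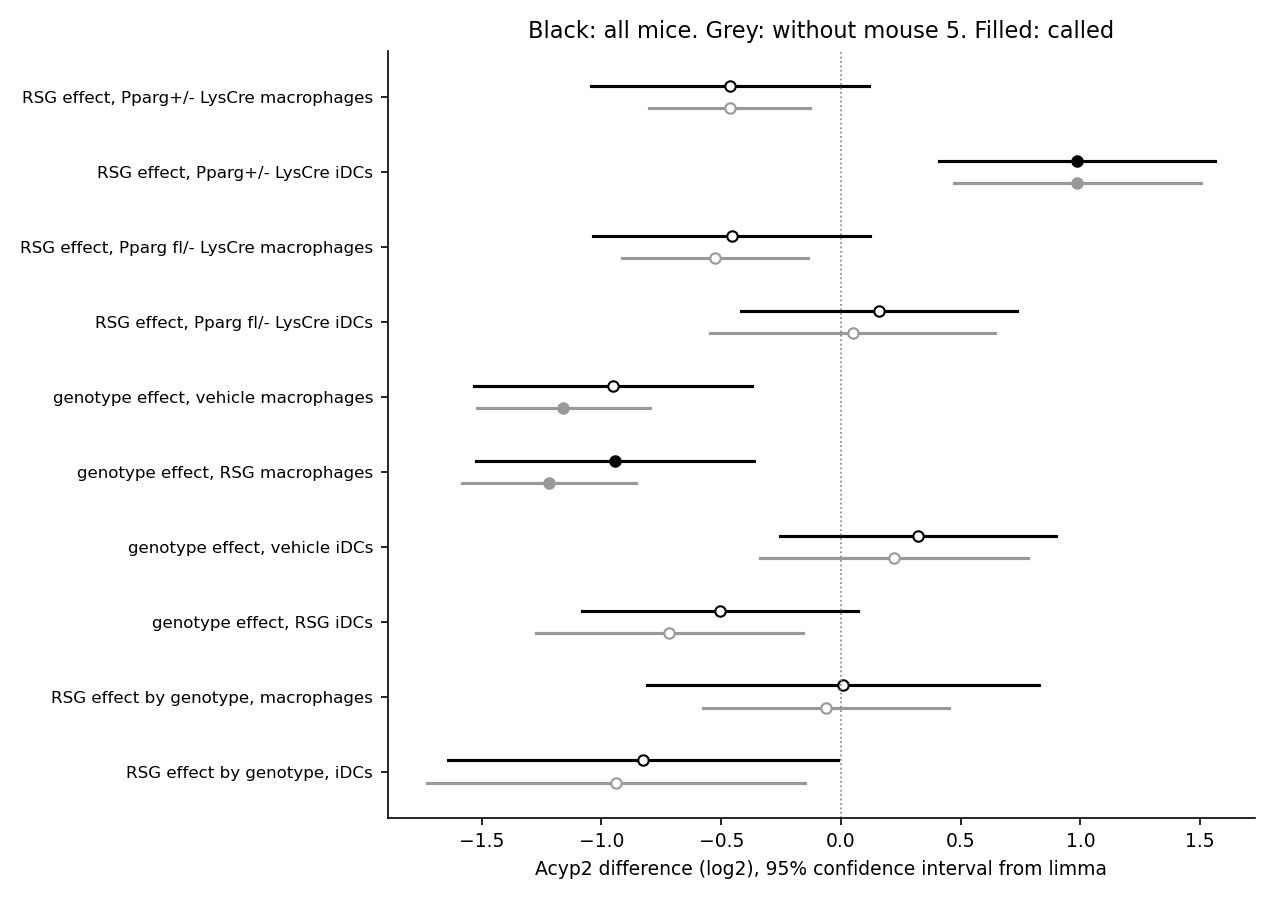
Acyp2 differences (horizontal axis, log2) with 95% confidence intervals from limma for 10 tested comparisons, with all 8 mice (black) and without mouse 5 (grey); filled points were called. Without mouse 5 the genotype effects in macrophages move from -0.95 to -1.16 (vehicle) and from -0.94 to -1.22 (RSG), with shorter intervals.

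By mean, Acyp2 was lower in Pparg fl/- LysCre than in Pparg+/- LysCre macrophages under both treatments, and the difference was called with RSG but not with vehicle. With vehicle the 4 values of each genotype did not overlap (11.75 to 12.83 against 12.89 to 13.42), as for 6.93% of the probes tested, and mouse 5 came closest to the other genotype. The difference was -0.95 ± 0.27 (SE), 95% confidence interval -1.53 to -0.37, with a limma adjusted p of 0.0839 that missed the threshold. This comparison uses the vehicle-treated Pparg+/- LysCre macrophages, the highest of the 8 groups and part of the contrast by which the gene was chosen. Its p-values take no account of that. In this comparison 0.156% of the probes were called, 26 of them, against 341 with the mouse as a random block. The exact two-sided permutation p was 0.0286 (n = 4 and 4), the smallest this design allows, and 0.171 adjusted over 6 tests. Without mouse 5 the difference was -1.16 with a limma adjusted p of 0.000455, and the probes called over the array numbered 2488. Mouse 5 had the highest Acyp2 level of its genotype here, so leaving it out widens the difference. Leaving out any other mouse gave differences of -1.04 to -0.80 and limma adjusted p-values of 0.172 to 0.234, with no call.

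With RSG the difference was of the same size, -0.94 ± 0.27 (SE), with a 95% confidence interval of -1.52 to -0.36, and it was called (limma adjusted p = 0.0365) where 9.33% of the probes were called. The ranges of the genotypes overlapped through mouse 5, whose 12.58 lay above the 12.50 of mouse 2. The exact permutation p was 0.0571 (n = 4 and 4, 0.171 adjusted over 6 tests). Without mouse 5 the difference was -1.22 (limma adjusted p = 0.000203, 3385 probes called against 1550). Left-out mice 1, 2, 3, 4, 6, 7 and 8 each ended the call, with adjusted p-values of 0.0713 to 0.123 and differences of -1.01 to -0.78.

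Other genes moved with these macrophage arrays. The erythroid gene Hba-a1 was detected in mice 6 to 8, where Acyp2 was 11.25 to 12.28, and was not detected in mice 1 to 5, where Acyp2 was 12.50 to 13.42. It was the 1 of 5 erythroid genes listed that had a named probe, and erythroid genes outside that list are not given here. The part of such cells, of scan day and of mouse 5 in the Acyp2 difference was not tested.

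**Figure D4:**
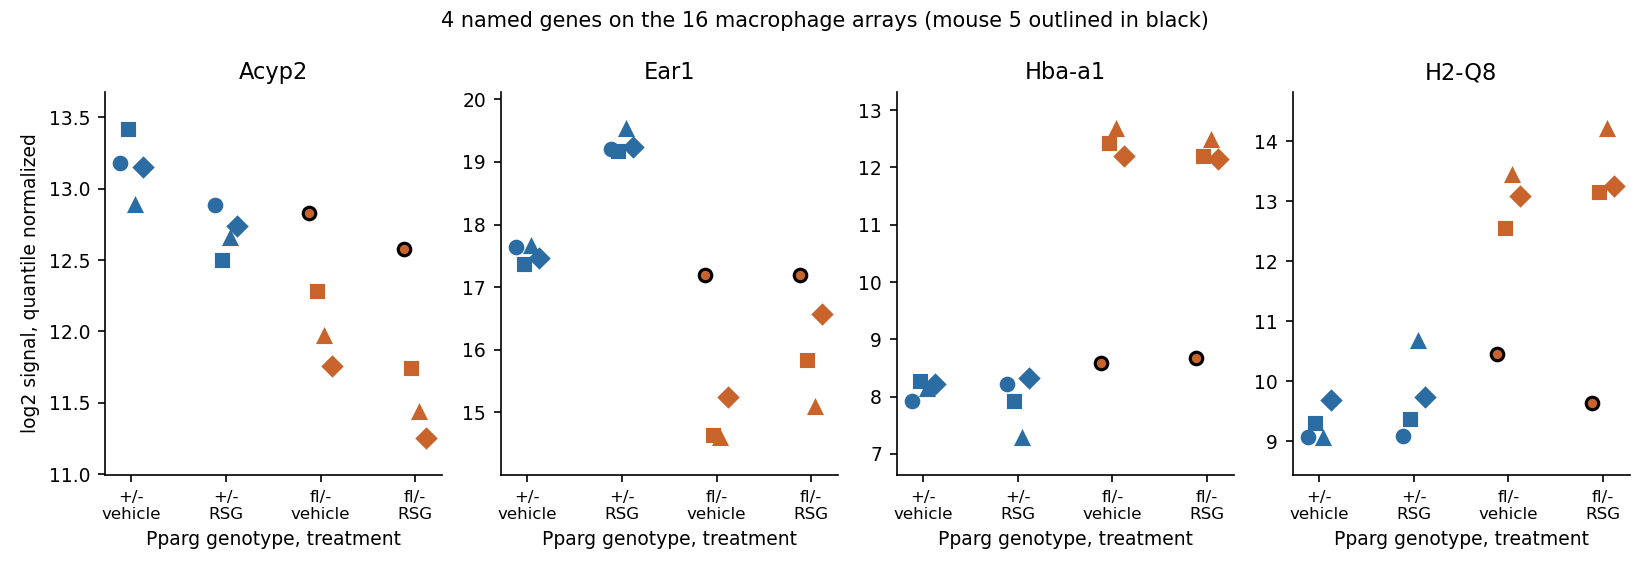
Levels of Acyp2, Ear1, Hba-a1 and H2-Q8 (vertical axes, log2 of the quantile-normalized signal, each gene on its own scale) on the 16 macrophage arrays by genotype and treatment; each point is a mouse, and mouse 5 is outlined in black. In Hba-a1 and H2-Q8 mouse 5 lies far below mice 6 to 8, and in Acyp2 it lies above them; Hba-a1 was not detected in mice 1 to 5, nor H2-Q8 in mice 1 to 4 or in mouse 5 with vehicle.

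In iDCs the genotypes were not told apart. With vehicle the Pparg fl/- LysCre level was 0.32 ± 0.27 (SE) higher, with overlapping ranges (limma adjusted p = 0.516, 2.83% of probes called; exact permutation p = 0.286, n = 4 and 4). With RSG it was -0.51 ± 0.27 (SE) relative to Pparg+/- LysCre, also with overlapping ranges (limma adjusted p = 0.236, 6.65% of probes called; exact permutation p = 0.200, n = 4 and 4). Leaving out mouse 5 gave 0.22 (adjusted p = 0.610, 2029 probes called against 471) and -0.72 (adjusted p = 0.0604, 2654 against 1106). The difference with vehicle was 0.16 without mouse 1 and 0.18 without mouse 8.

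The macrophage to iDC difference with vehicle was smaller by a mean of 1.27 in Pparg fl/- LysCre mice than in Pparg+/- LysCre mice. The 4 values of each genotype did not overlap (-1.99 to -0.64 against -3.27 to -2.47), as for 6.77% of the probes tested. With RSG the means differed by 0.44 and the values overlapped. Without mouse 5 these differences were 1.38 and 0.50. Both differences hold the contrast by which the gene was chosen, so no test is given, and nothing is read from the 5.34% (vehicle) and 7.4% (RSG) of probes called in these comparisons.

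Other genes of acyl phosphate metabolism could not be set beside Acyp2 by name. The lists held 25 gene symbols for glycolysis and 14 for P-type ion pumps and their regulators. A further 9 were for other enzymes, mainly of acyl-CoA or acetyl-CoA, and 10 were the nearest protein-coding genes. None of these had a probe with a gene name, since 311 of 33012 probes (0.942%) could be named here. Acyp1, the common-type acylphosphatase, was not among them.

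Among the 154 other named probes that were tested, the 5 whose levels followed Acyp2 most closely over the 32 arrays were Tceal9, Trmt61a, Atox1, Lgals1 and Nt5dc3. Tceal9, of the transcription elongation factor A-like family, had a Pearson's r of 0.91 over the 32 arrays and 0.97 over the 8 group means. The arrays fall in 2 clusters, the cell types, which raises such values, and within them r was 0.79 over the 16 macrophage arrays and 0.69 over the 16 iDC arrays. The arrays of each cell type are also split by genotype and treatment, which can raise the values within it too. The group means of Tceal9 were 18.27 and 17.96 in Pparg+/- LysCre macrophages (vehicle and RSG) and 14.41 and 15.46 in the iDCs of those mice. Tceal9 was thus also lower in iDCs and, by its means, lower with RSG in macrophages and higher with RSG in iDCs.

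Trmt61a, the catalytic subunit of a tRNA methyltransferase, had an r of 0.88 over 32 arrays, 0.85 within macrophages and 0.58 within iDCs. Atox1 (a copper chaperone), Lgals1 (galectin-1) and Nt5dc3 (a 5'-nucleotidase domain protein) had 0.86, 0.85 and 0.85 over 32 arrays. Within macrophages these were 0.91, 0.62 and 0.87, and within iDCs -0.27, -0.05 and 0.16. The likeness of these 3 genes to Acyp2 thus lay in the cell type and the macrophage arrays, while Tceal9 and Trmt61a also followed it among iDC arrays.

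The 3 most opposed named genes were H2-Q8 (an MHC class I gene) with an r of -0.91, Zkscan17 (a zinc finger protein) with -0.85 and Ramp3 (a receptor activity-modifying protein) with -0.84. H2-Q8 was detected on 23 arrays, and the other 9 were the 8 Pparg+/- LysCre macrophage arrays and mouse 5 with vehicle. Its S/N there was below 3, so its correlation within macrophages is not given, and its r over 32 arrays rests partly on these values. Within iDCs, where it was detected on all 16 arrays, its r was -0.02. Its levels in vehicle-treated macrophages of mice 6 to 8 were 12.55 to 13.44. These points share arrays, mice and normalization, and 44 of the tested probes, Tceal9 included and the rest without a name here, followed Acyp2 at least as closely as Tceal9 did.

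**Figure D5:**
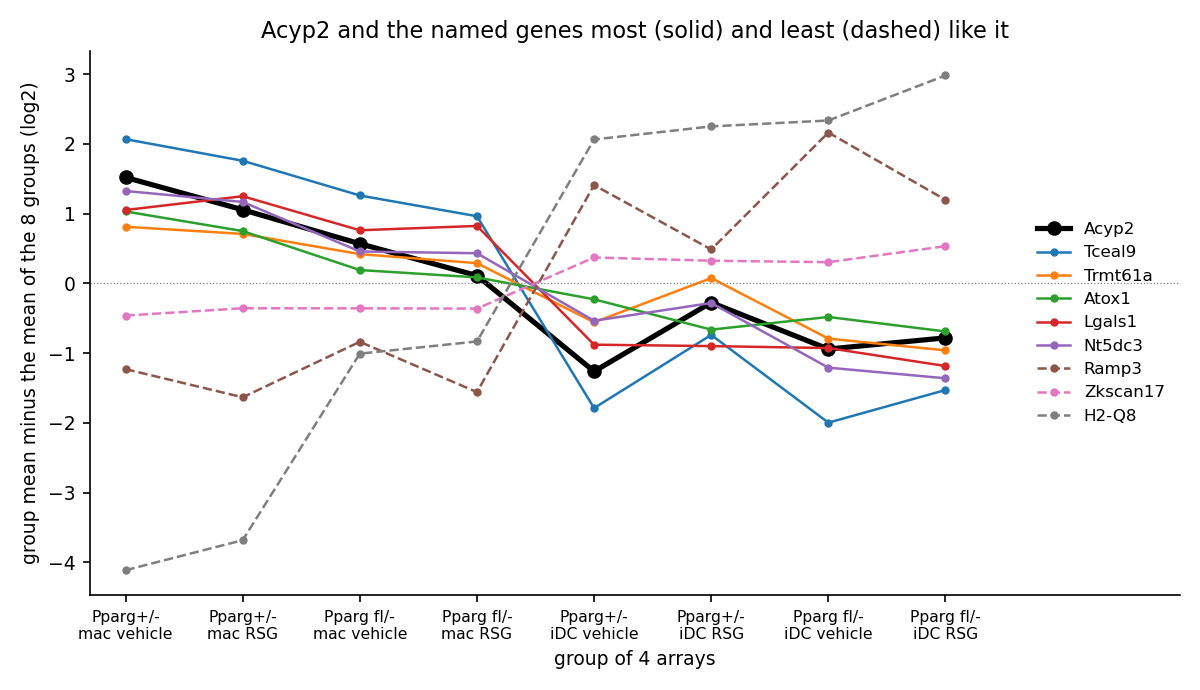
Group means of Acyp2 (black) and of the named genes most like it (solid lines) and most opposed to it (dashed lines) over the 8 groups of 4 arrays (horizontal axis), each minus its own mean of the 8 groups (vertical axis, log2). Acyp2 and Tceal9 are both lowest in vehicle-treated iDC groups and highest in Pparg+/- LysCre macrophages with vehicle.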

How the data were processed

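Gene expression was measured on Applied Biosystems chemiluminescence arrays. The authors deposited for each array the scanner's signal per probe, its standard deviation, an assay-normalized signal, quality flags and the S/N, a score that above 1 gives the signal over its standard deviation as deposited. They also deposited a table of ratios for the 32 arrays, whose scale is linear and whose divisor per array is not given in the sources used here. At an S/N of 1 or less (35.8% to 43.9% of probes per array) the listed signal equalled the listed standard deviation, within 0.006, in 99.87% of the values, so it is a level of noise there.

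Signals were log2 transformed and quantile normalized over the 32 arrays, with control spots left out. Probes were tested if 3 or more of the 4 arrays in any group had an S/N of 3 or above, which left 16620, and the test was done with limma 3.58.1 in R 4.3.3, with a mean per group over the 16 arrays of a cell type (32 for terms that involve both cell types, given as descriptions) and Benjamini-Hochberg adjustment over all probes. Calls required an adjusted p below 0.05 together with a 1.5-fold or larger difference. The script was tested on simulated data. Detected probes per array numbered 13595 to 16683, and the number of arrays limits the precision. Pearson's r between arrays of a group was 0.943 to 0.981.

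The labels give the mouse of each array, and the 4 arrays of a mouse are paired by it. Over the tested probes, deviations from group means correlated within a mouse at a median r of 0.28 inside a cell type and 0.15 across cell types, against -0.09 and -0.05 between different mice of a genotype. Exact permutation tests exchanged mice between genotypes, and sign-flip tests changed signs within mice. The differences of the cell type gap between genotypes and between treatments were planned as tests and are given as descriptions. Acyp2, the gene lists and the tests were chosen with earlier results of these data known. Named genes are Acyp2, members of the fixed lists with a probe, and the 5 most and 3 least correlated named probes; H2-Q8 and the 2 marker genes were plotted after their values were seen. Alternatives were median scaling, the authors' ratios, the assay-normalized signal, no detection filter or a stricter one, an offset, other fold thresholds, the methods' t-test, other sets of arrays, the mouse or scan day as a block, and each mouse left out.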

Additional observations from a re-analysis of the deposited data

Results flagged for a closer look

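Of 24 sets of 4 values of Acyp2 (levels, S/N and differences within mice), 2 had a sample apart from the others by Dixon's criterion (a gap of more than 0.829 of the range), where chance gives about 1 in 20. The S/N of vehicle-treated Pparg+/- LysCre iDCs was 10.74 in mouse 4 and 5.40, 5.82 and 6.02 in the other mice, a gap of 0.884 of the range. The RSG change in Pparg fl/- LysCre macrophages was -0.25 in mouse 5 and -0.54, -0.53 and -0.50 in the other mice, a gap of 0.870 of the range. In Pparg+/- LysCre mice the level with RSG was lower in macrophages and higher in iDCs of all 4 mice, a mean difference between the changes of 1.45 (log2, iDCs minus macrophages), which was not tested because the gene was chosen by its difference between the cell types. No explanation was tested for these values.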

How the results depend on the processing

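Over 12 tested differences of Acyp2, 222 of 248 values under alternative settings kept their direction and their side of the threshold. Many of these settings leave the estimate itself unchanged, and most of the 12 differences were not called to begin with. The RSG effect in Pparg+/- LysCre iDCs stayed called in 14 of 21 settings, and the genotype effect in RSG-treated macrophages in 9 of 21. The RSG effect in Pparg+/- LysCre iDCs (0.99) was no longer called with no detection filter (adjusted p = 0.0911), a 2-fold threshold or the methods' t-test (0.0504), and ran from 0.85 to 1.17 with a mouse left out. The genotype effect in RSG-treated macrophages (-0.94) was no longer called with the authors' ratios (-0.91), no filter, a 2-fold threshold, the methods' t-test (adjusted p = 0.133) or only the arrays compared, and ran from -1.22 to -0.78 with a mouse left out. That in vehicle-treated macrophages (-0.95) was called with all 32 arrays (adjusted p = 0.0349) and ran from -1.16 to -0.80. The RSG effect by cell type in Pparg+/- LysCre mice, given without a test (1.45), was 1.41 with the assay-normalized signal, unchanged at 1.45 with no filter, and ran from 1.37 to 1.51. The cell type difference by genotype with vehicle, given without a test (1.27), was 1.35 with median scaling, 1.24 with the offset and 1.27 with the stricter filter, the scan day as a block or the mouse as a replicate block, and ran from 0.98 to 1.43. The pairing by mouse changed no call of Acyp2 among the tested differences. The RSG effect by genotype in macrophages (0.01) became -0.049 with the assay-normalized signal and ran from -0.14 to 0.084, and the RSG effect in Pparg fl/- LysCre iDCs ran from -0.019 to 0.40. With a mouse left out, the genotype effect in vehicle-treated iDCs (0.32) ran from 0.16 to 0.46 and the RSG effect by cell type in Pparg fl/- LysCre mice (0.62) from 0.41 to 0.84. The mean RSG effect in iDCs was called with the authors' ratios (0.60). The descriptive cell type differences moved by less than 1 SD throughout. The authors' ratios moved the median of all probes by over 0.1 in 7 of 16 comparisons, by 0.22 in the RSG effect by cell type of Pparg+/- LysCre mice, where Acyp2 was at 1.75 and 634 probes were called higher and 103 lower, against 296 and 206. Counts of probes called ran from 573 to 1353 for the RSG effect in Pparg+/- LysCre iDCs, 187 to 3385 for the genotype effect in RSG-treated macrophages and 0 to 2488 in vehicle-treated macrophages. Of the 8 genes named for likeness, 5 were also chosen by Spearman's rho and 6 under median scaling. Except where a mouse was left out, which leaves fewer arrays, or a filter changed the number of probes tested, the cause was not tested. The iDC values rest on lower S/N (median 7.66) than the macrophage values (20.8).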
